A study of Caenorhabditis elegans with 24 samples.

Results

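The major sperm protein (MSP) genes of Caenorhabditis elegans were taken as every gene whose symbol in the deposited tables is msp- followed by a number. This gave 31 of 46926 genes, and each of the 10 tables held the same 31. RNA had been sequenced from synchronized whole worms, harvested as young adults. The labels give 4 genotypes, each at 20 °C and at 26 °C, which makes 8 groups of 3 libraries. In WT the Argonaute WAGO-4 was tagged (3xFLAG::GFP::WAGO-4). The 3xFG strain carried the same tag and mutated phenylalanine-glycine repeats in the germ granule helicases GLH-1, GLH-2 and GLH-4, which in GLH-2 had been made as a large deletion. WAGO-4(Y611E) carried the tag and an amino acid change in WAGO-4. WAGO-4 KO lacked WAGO-4 and has no tag in its label. Each library came from a population of worms, so that germline and soma were measured together. Levels were compared between the 2 temperatures over the genotypes together, because the mean normalized counts used here pool the genotypes. The MSP genes of a mutant were not compared with those of WT here.

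MSP is a small, abundant protein of nematode sperm. It polymerizes into the fibres that drive the crawling of sperm, which move without actin or flagella. Sperm also release MSP as a signal, which binds receptors on oocytes and on the sheath cells of the gonad and starts oocyte maturation and ovulation. In the hermaphrodite, msp genes are transcribed in developing spermatocytes, before the germline switches to making oocytes, and transcription has ended in mature sperm.

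By the Ensembl annotation of WBcel235, all 31 were protein-coding and had 1 exon, and 28 of them spanned 384 bases. The others were msp-32 with 360 bases and msp-58 and msp-74 with 234 bases each. These are coding lengths, since the annotated genes hold no untranslated regions. The annotation placed 13 members on chromosome II and 18 on chromosome IV, 17 on the plus strand and 14 on the minus strand. Their sequences were not compared here. The family is known for closely similar copies, so that reads of a member may have been given to another, and how the counting treated such reads is not given in the sources used here. Values of single members are therefore uncertain, and those of the family sum less so. Another gene overlapped 4 members. The overlapping gene was aagr-2 for msp-31 and srb-13 for msp-45, both on the same strand, and gst-9 for msp-33 and dhs-12 for msp-38, both on the opposite strand.

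The level of a gene is its mean normalized count, which the authors had divided by a size factor for the depth of each library and averaged over all libraries of a fit. The tables held 3 sets of such means: for 20 °C, for 26 °C and for both temperatures in a joint fit. A gene with a lone read in a lone library has a mean that depends on that library only, and the recurring smallest means therefore showed how many libraries were averaged. They showed 18 libraries at 20 °C, 18 at 26 °C and 24 in the joint fit. At each temperature 12 of the 18 libraries were also in the joint fit and 6 were not. The joint fit has as many libraries as there are labelled samples, 24, and is taken here to hold those samples. The genotypes of the 6 further libraries at each temperature are not given in the sources used here. Size factors ran from 0.895 to 1.87 at 20 °C and from 0.819 to 1.25 at 26 °C, and the mean normalized counts of all genes summed to 30474128 and 28460281. The means carry no spread between libraries, so no error and no test can be given for any level or ratio below. How far replicates differ is unknown here. Defining genes of sperm (msp-), oocytes (rme-2), intestine (vit-2) and muscle (unc-54) were all detected at both temperatures, as whole worms would hold them.

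The MSP genes were lower at 26 °C than at 20 °C. Their summed mean normalized count was 41443 at 20 °C, 11119 at 26 °C and 28011 over both temperatures. On the scale common to both temperatures this was a log2 ratio of -1.88, or 3.68-fold lower at 26 °C. The family took 0.136% of the summed mean normalized counts of all genes at 20 °C and 0.0391% at 26 °C. The median member had a mean normalized count of 1458 at 20 °C and 338 at 26 °C. At 20 °C 20 members had a mean over 1000, and at 26 °C none did, with 11 over 500. In whole worms, fewer cells that make sperm and less msp RNA in each of them cannot be told apart. The paper synchronized the worms of each temperature by a different route, so handling goes with temperature and the exact age at harvest may. Their part in the difference was not tested.

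**Figure D1:**
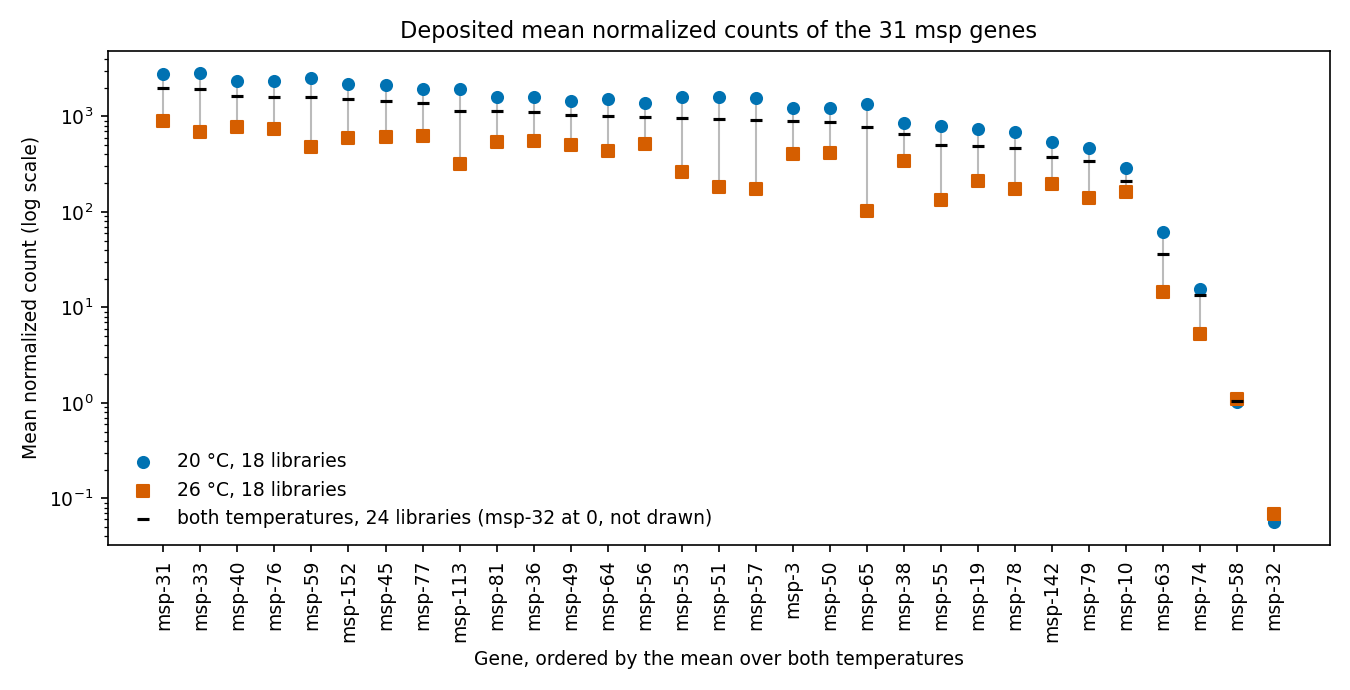
Mean normalized count (log axis) of each of the 31 msp genes at 20 °C (circles), at 26 °C (squares) and in the joint fit of both temperatures (dashes), ordered by the joint mean. The square lies below the circle in each of the 29 members with a joint mean of at least 10. The means pool the genotypes and carry no error bars. Of the 18 libraries behind each circle or square, 6 have no genotype given.

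The ratio could be bounded for the libraries of the joint fit alone. The 12 of them grown at 26 °C cannot hold more normalized reads than all 18 libraries of that temperature, and the joint mean then fixes the least that the 12 grown at 20 °C must hold. By this arithmetic the family mean over the 12 libraries was at most 16920 at 26 °C and between 39102 and 56022 at 20 °C. The family was therefore at least 2.31-fold lower at 26 °C in these libraries, a log2 ratio of at most -1.21. The limit uses the library scale least favourable to a decrease, and it covers no error between replicates.

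The members with the highest levels shared this difference. In the order of their joint means these were msp-31, msp-33, msp-40, msp-76 and msp-59. Together they made up 30.9% of the family sum at 20 °C, where they were also the 5 highest. The 5 highest members at 26 °C, with msp-77 in place of msp-59, made up 33.2% of the sum there. The gene msp-31 (WBGene00003429, II:4916179-4916562, minus strand) had a mean normalized count of 2794 at 20 °C and 887 at 26 °C, a log2 ratio of -1.64. It is the member that overlaps aagr-2, a glycosidase gene whose joint mean was 9595. The gene msp-33 (WBGene00003431, II:4892311-4892694, minus strand) had the highest mean at 20 °C, 2832, and 683 at 26 °C, a log2 ratio of -2.04. The pooled means of msp-31 and msp-33 were thus 3.11-fold and 4.10-fold lower at 26 °C.

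The other 3 of the high members had similar levels. Means were 2331 and 765 for msp-40 (WBGene00003435, II:4825414-4825797, plus strand), with a log2 ratio of -1.59. They were 2350 and 741 for msp-76 (WBGene00003463, IV:9689015-9689398, plus strand), with a log2 ratio of -1.65. The gene msp-59 (WBGene00003452, IV:5312728-5313111, minus strand) was close to these at 20 °C with 2519 but stood at 476 at 26 °C, a log2 ratio of -2.39. Its order among the members thus differed between the temperatures. Since the means have no error, it cannot be said whether these 5 genes differ from each other beyond the spread between libraries.

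At the other end, 4 members had the lowest levels of the family. The gene msp-63 (WBGene00003456, II:5797065-5797448, minus strand) had a mean normalized count of 62.2 at 20 °C and 14.3 at 26 °C. The shorter gene msp-74 (WBGene00003462, II:5115102-5115335, minus strand) had 15.7 and 5.25, which per kilobase is 67.0 and 22.4. Their log2 ratios were -2.10 and -1.56, and those of the high members ran from -2.39 to -1.59. The gene msp-58 (WBGene00003451, IV:5308593-5308826, plus strand), also of 234 bases, had 1.01 and 1.09, and its limits in the libraries of the joint fit, log2 ratios from -1.58 to 1.96, include both directions. The gene msp-32 (WBGene00003430, II:4898829-4899188, plus strand) had 1 read at 20 °C and 1 at 26 °C. Both reads were in libraries outside the joint fit, where its mean was 0, and no ratio is given because both are under 3 reads.

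Across all members with enough reads, the direction was the same. A joint mean of at least 10 was reached by 29 members, all but msp-58 and msp-32, and by 14175 genes in all. Among these, 28 of 29 members were at least 2-fold lower at 26 °C, against 4.50% of all genes. None of the 29 was at least 2-fold higher, against 13.3% of all genes. The median log2 ratio was -1.71 for the members and 0.10 for all genes, whose middle quartiles ran from -0.26 to 0.61. A ratio below the members' median was found in 0.945% of all genes.

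The limits for the libraries of the joint fit gave a like count. An upper limit under a ratio of 1 was found for 28 of 29 members, against 6.36% of all genes. For 16 of 29 members the limit itself was at least a 2-fold decrease, against 1.23% of all genes. For 80.1% of all genes the limits left both directions possible. The member left out of both counts of 28 was msp-10.

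The smallest difference was that of msp-10 (WBGene00003425, IV:9837649-9838032, plus strand), with a mean normalized count of 290.7 at 20 °C and 160.5 at 26 °C. Its log2 ratio was -0.84, and its upper limit in the libraries of the joint fit was 0.44, which does not settle the direction there. Next came msp-38 (WBGene00003434, IV:10143357-10143740, minus strand), with 855 and 338, a log2 ratio of -1.32. The gene msp-38 overlaps dhs-12, a dehydrogenase gene with a joint mean of 1336 that lies on the opposite strand, and whether the counting used strand is not given in the sources used here. The gene msp-56 (WBGene00003449, IV:9841540-9841923, plus strand) had 1375 and 514, a log2 ratio of -1.40. These 3 genes lie in the same part of chromosome IV, and the upper limits of msp-38 and msp-56 were -0.62 and -0.59.

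The greatest difference was that of msp-65 (WBGene00003458, IV:5316523-5316906, plus strand). Its mean normalized count was 1345 at 20 °C, close to the family median, and 101.5 at 26 °C, which is 13.1-fold lower and at least 8.95-fold lower in the libraries of the joint fit. Of all 14175 genes, 6 had a lower ratio. The gene msp-57 (WBGene00003450, IV:5062578-5062961, plus strand) had 1564 and 173, a log2 ratio of -3.16. The gene msp-51 (WBGene00003444, IV:5294957-5295340, minus strand) had 1579 and 182, a log2 ratio of -3.10. All 3 genes have the common length of 384 bases and lie near 5 megabases on chromosome IV.

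The members fall into 7 groups on the chromosomes when genes up to 100 kilobases apart are joined, 3 on chromosome II and 4 on chromosome IV. Groups 4 and 5, on chromosome IV near 5 megabases, hold 9 members. Their summed mean normalized count was 12051 at 20 °C and 1848 at 26 °C, which is 6.45-fold lower and at least 4.20-fold lower in the libraries of the joint fit. The share of the family sum that they made up was 29.1% at 20 °C and 16.6% at 26 °C. This grouping was chosen after the values had been seen, and it has no test.

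The other members of chromosome IV, 9 genes near 10 megabases, were 2.92-fold lower in sum at 26 °C, and the 13 genes of chromosome II were 3.28-fold lower. The median log2 ratio was -2.60 near 5 megabases, -1.56 near 10 megabases and -1.61 on chromosome II. Of the 8 members near 5 megabases with a joint mean of at least 10, 7 had a lower ratio than every one of the 21 members elsewhere, the exception being msp-19 with a log2 ratio of -1.80. At 20 °C the median members of these 3 places had mean normalized counts of 1572, 1375 and 1489. At 26 °C the medians were 195 near 5 megabases, 514 near 10 megabases and 470 on chromosome II, and the ranges overlapped at both temperatures. Without the members near 5 megabases, the family sum was 3.13-fold lower.

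Near 5 megabases, the members not yet described were msp-53, msp-55, msp-113 and msp-19. The mean normalized count of msp-113 was 1926 at 20 °C and 314 at 26 °C, and that of msp-53 was 1588 and 259. The gene msp-55 had 795 and 133. These 3 had log2 ratios between -2.60 and -2.56, and msp-19, with 735 and 209, was nearer to the members elsewhere.

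Near 10 megabases, group 6 runs from msp-76 to msp-77 and group 7 holds msp-36 and msp-38. The neighbours msp-79 and msp-78 were at the lower end at both temperatures, with a mean normalized count of 462 and 681 at 20 °C and of 140 and 175 at 26 °C. The genes msp-81, msp-36 and msp-77 had 1587, 1591 and 1915 at 20 °C and 533, 546 and 618 at 26 °C. Their log2 ratios lay between -1.62 and -1.53. The gene msp-10 lies between msp-81 and msp-56 in group 6, and its joint mean of 212 was the lowest of this group.

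On chromosome II, group 1 holds msp-3 and msp-152 beside msp-31, msp-33, msp-40 and msp-32. The mean normalized count of msp-152 was 2178 at 20 °C and 589 at 26 °C, and that of msp-3 was 1210 and 408. In group 2, msp-45, which overlaps srb-13 with its joint mean of 1.49, had 2130 and 604. The adjacent genes msp-49 and msp-50 had 1458 and 1218 at 20 °C and 505 and 416 at 26 °C, and their log2 ratios of -1.51 and -1.53 were nearly equal. In group 3, msp-64 had 1519 and 435, and msp-142 had 540 and 195. The gene msp-63, with 62.2 at 20 °C, lies within 1 kilobase of msp-142. These neighbours differed more in level than in their log2 ratios, -2.10 and -1.45.

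**Figure D2:**
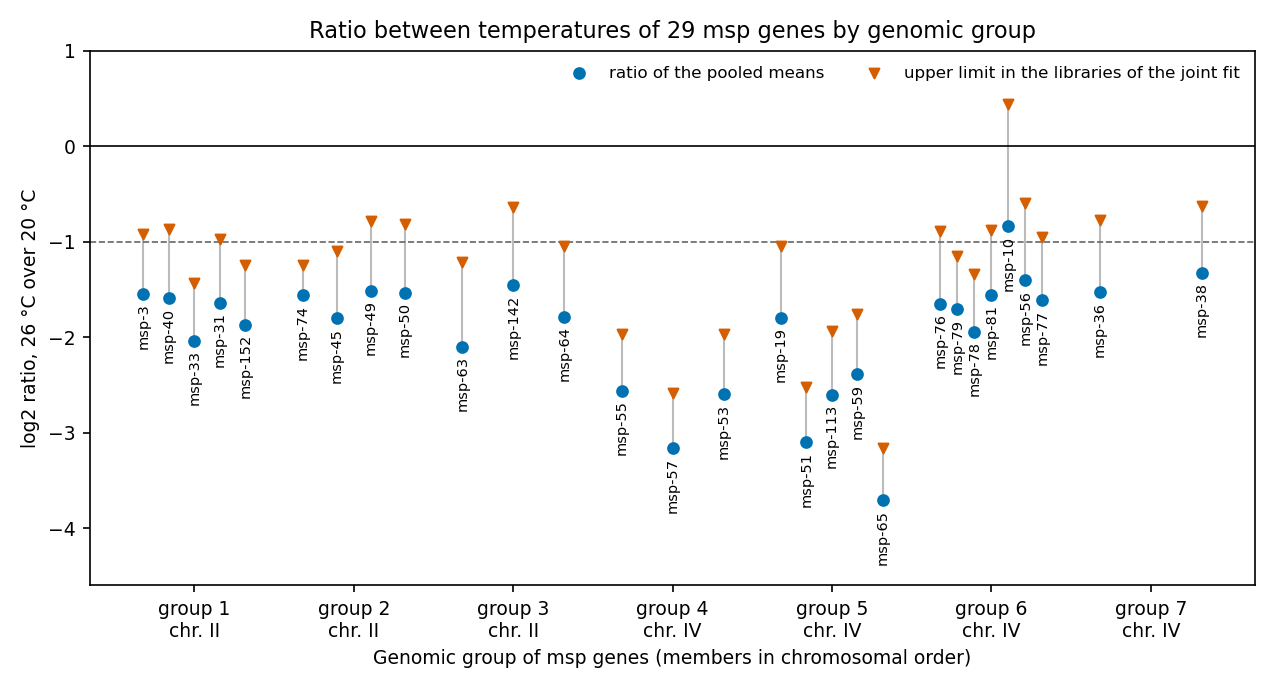
Log2 ratio of the mean normalized counts, 26 °C over 20 °C (circles), of the 29 msp genes with a joint mean of at least 10, by genomic group, with the upper limit for the libraries of the joint fit (triangles). The solid line marks no difference and the dashed line a 2-fold decrease; groups 4 and 5 hold the 7 lowest ratios, down to -3.71 for msp-65, and msp-10 is the member whose limit lies above 0.

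The 7 spans also held 143 protein-coding genes that are no members, of which 107 had a joint mean of at least 10. Their median log2 ratio was -0.23, between the members' -1.71 and the 0.10 of all genes. At 26 °C 21 of the 107 (19.6%) were at least 2-fold lower, against 4.50% of all genes, and 5 (4.67%) were at least 2-fold higher, against 13.3% of all genes. The genes at least 2-fold lower were 3 of 29 in group 1, 2 of 8 in group 2 and none of 3 in group 3. On chromosome IV they were 1 of 1 in group 4, with a log2 ratio of -1.90 and an upper limit of -1.56, 2 of 10 in group 5, 12 of 44 in group 6 and 1 of 12 in group 7. In group 5 the median log2 ratio of these genes was -0.63. Any sperm genes beyond the MSP family were not set apart among the genes of the 7 spans. What the members and the genes around them share was not tested.

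Other genes of sperm were lower at 26 °C in part. Of 54 sperm genes beyond the MSP family, 46 had a joint mean of at least 10, with a median log2 ratio of -0.76. At least 2-fold lower were 18 of the 46 and at least 2-fold higher none, against 4.50% and 13.3% of all genes. The 54 genes include small gene families that the worm expresses in sperm. The msd- genes, whose products contain an MSP domain, were all at least 2-fold lower in the 3 that could be compared, and their highest member msd-4 had a mean normalized count of 1147 at 20 °C and 461 at 26 °C. Of the nspd- genes 6 of 9 were at least 2-fold lower, and of the ssp- genes, which are sperm-specific genes related to MSP, 5 of 12 were. The median log2 ratios of these lists were -1.80, -1.20 and -0.73.

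The spe- genes, named for defects in sperm formation or function, were closer to the median of all genes. Of 19 with a joint mean of at least 10, 2 were at least 2-fold lower, against 4.50% of all genes, and the median log2 ratio was -0.32. Those 2 were spe-8, which acts in sperm activation, with a mean normalized count of 153 at 20 °C and 59.3 at 26 °C, and spe-12, of the same pathway, with 33.2 and 15.8. The highest ratio of the spe- genes was that of spe-5, a log2 ratio of 0.87. The sperm-specific phosphatases gsp-3 and gsp-4, which act in MSP-driven movement, had log2 ratios of -1.51 and -1.30. The other genes taken as markers of sperm, fer-1, spe-9 and spe-11, had log2 ratios of -0.52, -0.36 and -0.02. The kinase gene spe-6, which is needed for MSP to assemble in spermatocytes, had 162 and 199, and its upper limit lay above 0.

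**Figure D3:**
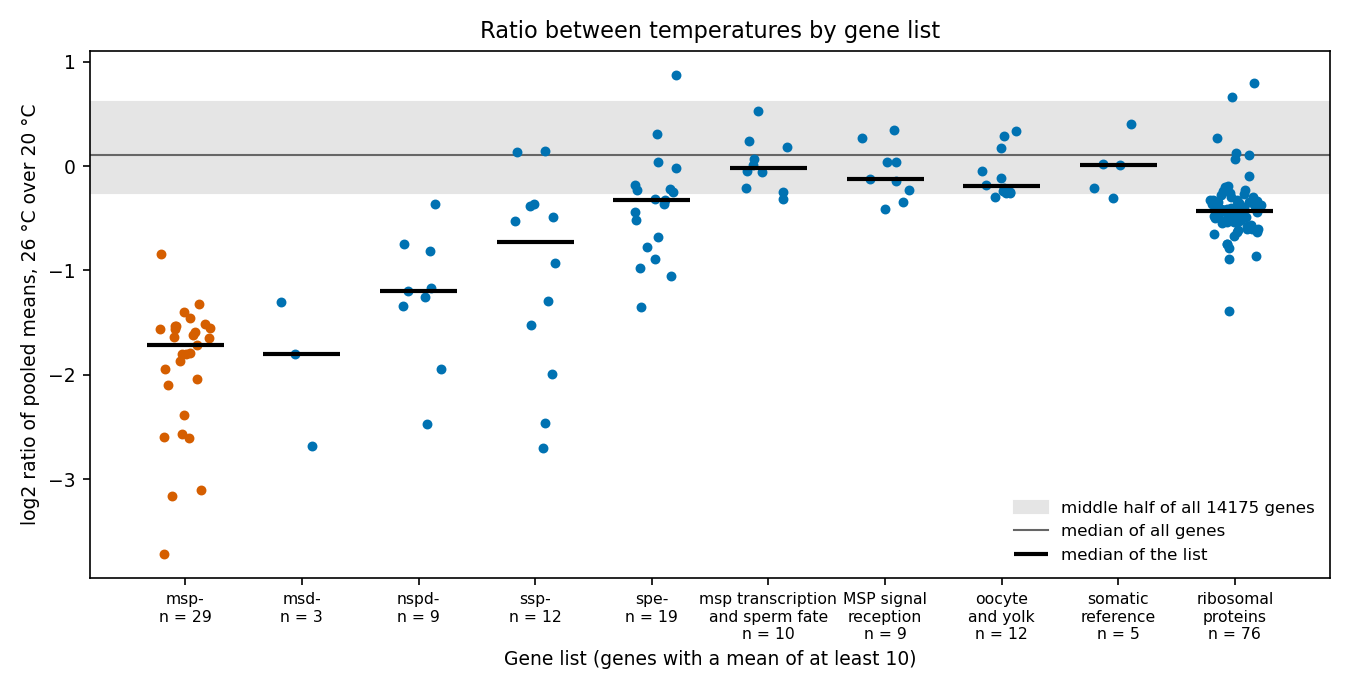
Log2 ratio of the mean normalized counts, 26 °C over 20 °C, of each gene with a joint mean of at least 10 (points) in the MSP family and 9 other lists, with the median of each list (bars), the median of all 14175 genes (line) and their middle quartiles (band). The medians run from -1.80 for msd- and -1.71 for msp- genes to 0.01 for the somatic reference. They were -0.43 for ribosomal protein genes, -0.32 for spe- genes and -0.02 for genes of msp transcription and sperm fate.

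The genes that control msp transcription and sperm fate had ratios near 1. None of 10 was at least 2-fold lower or higher, but only 4.50% and 13.3% of all genes were. The median log2 ratio of the 10 was -0.02. They include spe-44, a transcription factor of spermatocytes, with a mean normalized count of 666 at 20 °C and 530 at 26 °C, and elt-1, a GATA factor that acts on msp genes, with 152 and 178. The gene fog-3, which directs germ cells to the sperm fate, had 55.9 and 79.5. Their limits in the libraries of the joint fit left both directions possible in all 10, as in 80.1% of all genes.

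The receiving side of the MSP signal was also near the median of all genes. None of 9 genes was at least 2-fold lower or higher, against 4.50% and 13.3% of all genes, with a median log2 ratio of -0.13. The Eph receptor gene vab-1, which binds MSP, had a mean normalized count of 5931 at 20 °C and 6037 at 26 °C. The gene ceh-18, a homeobox factor of the sheath cells, had 383 and 481. Of the 12 oocyte and yolk genes none was at least 2-fold lower or higher, against the same shares of all genes. The yolk receptor gene rme-2 had 35932 and 28830.

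The somatic and vitellogenin genes lay near the median of all genes. The median log2 ratio was 0.01 over 5 somatic genes of actin, tubulin and myosin, and 0.03 over the 6 vitellogenin genes. The 76 ribosomal protein genes had a median of -0.43, with 1 of them at least 2-fold lower, against 4.50% of all genes. Of the genes of male tissue, try-5 had a mean normalized count of 6.75 at 20 °C and 14.9 at 26 °C and mab-3 had 37.7 and 56.3. Their log2 ratios were 1.16 and 0.59. Over these 2 genes the limits in the libraries of the joint fit, log2 ratios from -0.24 to 2.62, include both directions. The part of the ribosomal protein and male marker differences in the MSP result was not tested.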

How the data were processed

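Ribosomal RNA was removed from total RNA of whole worms before directional libraries were prepared and sequenced as read pairs. The authors used a pipeline based on nf-core/rnaseq, with build WBcel235 per the labels. Aligner, counter and annotation release are not given in the sources used here. The deposited signal is a mean normalized count per gene, averaged by the authors over the libraries of a DESeq2 fit. The tables also hold the authors' fold changes, their errors and p-values for 6 comparisons of a mutant with WT and 4 of temperature, which were not used. No column holds values per library.

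Libraries were counted from means shared by at least 4 genes with a lone read. This rule would miss a library with a size factor under 0.718 at 20 °C, 0.620 at 26 °C or 0.748 in the joint fit. All 327 genes behind the match of libraries between fits gave the same answer. The means of each temperature were multiplied by the median library scale to the joint fit, 0.998 at 20 °C and 1.01 at 26 °C. A scale by regression had been planned, on the premise that the fits share their libraries. The premise failed, so the scale and the limits were chosen after seeing the data. No pseudocount was used beyond a constant far below any mean, which kept a ratio finite for genes with no reads at a temperature. Ratios needed a joint mean of at least 10, and a difference was counted at 2-fold.

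Members, named by level and ratio (5 highest and 3 lowest joint means, 3 highest and 3 lowest ratios, and a member at 0), and gene lists were chosen with earlier results of these data known. All 31 members matched the annotation by identifier. The steps were tested on simulated data with the size factors found in the files, since with wider ones some libraries were missed. Calculations used Python 3.11.15, numpy 2.4.6, pandas 2.3.3 and scipy 1.17.1.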

Additional observations from a re-analysis of the deposited data

How the results depend on the processing

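The log2 ratio of the family sum, -1.88, became -1.98 when re-centred on the median of all genes, -1.999 with the regression scale and -1.65 without the members of chromosome IV near 5 megabases. The members' median, -1.71, became -1.81 when re-centred and -1.83 with the regression scale. The regression and the sum without those members were chosen after seeing the data. The other 18 of 23 settings (means as deposited, division by the sum over all genes, without msp-31, other minimums, the median library scale) moved no value past 0.1 in log2 or 1.5 times in a count, and none reversed a direction. The count of members at least 2-fold lower was 28 under each scale and 26 of 27 with a minimum of 100. No replicate could be left out. No paired analysis was possible because the means carry no replicate number. Without values per library the depth behind a mean is known only through the size factors.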

Other observations

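RefSeq names 35 msp genes, of which 4 carry no msp symbol in the deposited tables and are pseudogenes. By their identifiers, msp-71 had a mean normalized count of 77.4 at 20 °C and 24.2 at 26 °C, and msp-42 had 32.1 and 5.51. The pseudogene msp-52 had 0.169 and 0.925, and msp-37 was at 0 in all 3 sets of means.

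The joint mean of the family was 1.07 times the midpoint of the means of the 2 temperatures, against a median of 1.01 over all genes (10th to 90th percentile 0.950 to 1.12). It was above the midpoint in 27 of the 29 members compared, from 0.939 times for msp-10 to 1.28 times for msp-74. The median of all genes was above the midpoint too, and the members' median of 1.06 times lay within the percentile range of all genes. The joint fit and the means of the temperatures do not hold the same libraries, as described above.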
